A study of Schmidtea mediterranea with 6 samples.

Results

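In whole planarians fed RNA interference against Smed-myb-1, 107 abundant transcripts were present at a modestly higher level than in control animals. They were chosen from the measured levels themselves, by 3 conditions: a mean of at least 100 CPM (counts per 1000000 assigned reads) in the control animals, a mean in the myb-1 RNAi animals of at least 1.2 times the control mean, and every myb-1 RNAi library above every control library. Of 80979 assembled transcripts, 1610 reached the abundance condition, and 6.65% of those 1610 met all 3. The animals were Schmidtea mediterranea, freshwater flatworms of an asexual clonal strain, kept on beef liver and starved for 1 week before treatment. The treated group received 3 feeds over 1 week with double-stranded RNA against myb-1, and the control group the same feeds against unc22, a gene of a nematode that serves as the control target. RNA of intact wild-type animals of both groups was taken 6 days after the last feed, with 3 libraries per group that the labels call biological replicates, each made from 30 pooled animals. The growth protocol names the strain CIW4 for all samples, while a separate strain label differs from sample to sample and was left aside.

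Planarians replace the cells of their epidermis throughout life from dividing stem cells, the neoblasts. Neoblasts of the epidermal line leave the cell cycle, pass through an early progenitor state marked by genes of the prog family and a later one marked by agat genes, and then enter the epidermis as mature cells. The series concerns Smed-myb-1, which belongs to the Myb family of DNA-binding transcription factors, in setting the early state of this line. No member was linked to a later state of this line, because the deposited tables pair the identifiers with no gene names and name no cell state, so the members are given by identifier, with no role. For the same reason the level of the Smed-myb-1 transcript and of markers of the epidermal states, and of other tissues, was not analysed here. In RNA from whole animals, a higher level cannot be told apart as more cells of a type or more RNA per cell.

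The libraries held 30311289 to 41145013 reads assigned to transcripts, and the member with the fewest reads had 3214 in its lowest library. Counting error alone would give each member a coefficient of variation of 0.22% to 1.58% per library, under the ratio of at least 1.2 between the groups but close to the narrowest margins between single libraries. CPM are not divided by transcript length, so the order of members by CPM is an order of reads and not of molecules. One abundant transcript outside the set, SmedASXL_012104, took 0.52% to 1.83% of the reads in myb-1 RNAi and 0.82% to 4.81% in control RNAi, with the highest share in control library 3. Because CPM share 1 total, this moves every other value of control library 3 down slightly, and results were also computed without that library and with totals that leave this transcript out.

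Together the 107 transcripts took 6.36%, 6.36% and 6.43% of the reads of myb-1 RNAi libraries 1, 2 and 3, against 4.71%, 4.84% and 4.77% in control libraries 1, 2 and 3. The means were 6.38% ± 0.04 in myb-1 RNAi animals and 4.77% ± 0.07 in control animals (SD, n = 3 each), a ratio of 1.34. All of these values describe a set chosen for its difference between the same libraries, so no test is given. The coefficient of variation of the summed level between libraries was 0.595% in myb-1 RNAi and 1.43% in control RNAi. The ratio of the sums was 1.34 without control library 3 and ranged from 1.33 to 1.35 when each library was left out in turn.

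The differences were small for most members. The ratio of group means had a median of 1.28, with quartiles of 1.23 and 1.37, over the 107, where the rule admits none under 1.2. Over all 1610 abundant transcripts the median was 0.997, with quartiles of 0.94 and 1.07. In 61 of the 107 the ratio lay between 1.2 and 1.3, in 27 between 1.3 and 1.4, in 11 between 1.4 and 1.5, and in 8 it was 1.5 or more. None reached a ratio of 2, and the highest was 1.82. The same 2 conditions were also turned round: a ratio of at most 1 over 1.2, and every myb-1 RNAi library below every control library. These were met by 56 of the 1610 abundant transcripts, or 3.48%. The upward count was 94 with totals that leave SmedASXL_012104 out and 138 with the authors' deposited size factors. The downward count was made with the full totals only, so the balance of the 2 counts under other scalings is not known.

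**Figure D1:**
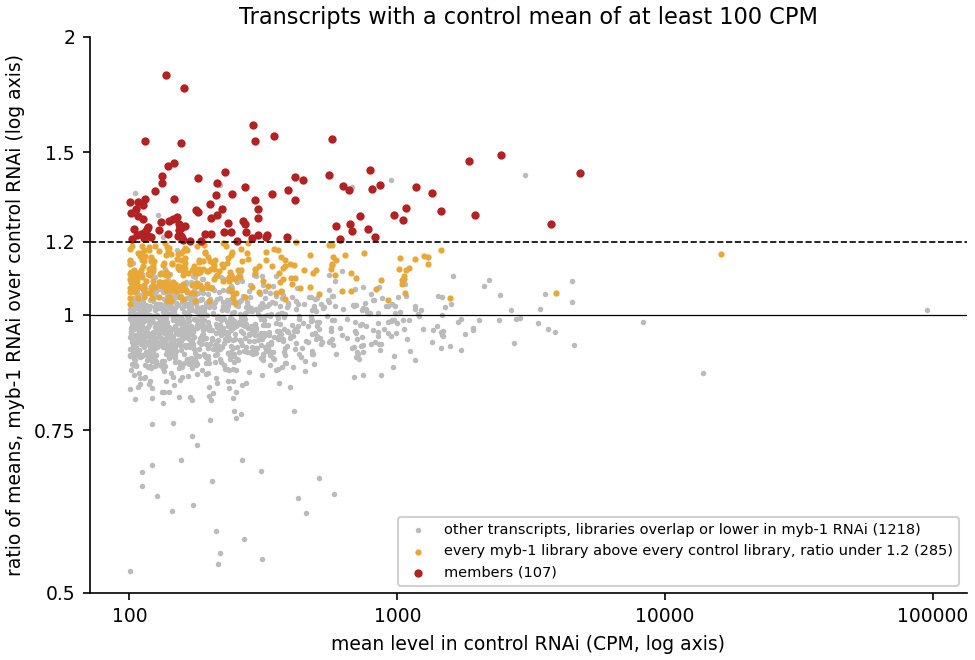
Ratio of mean levels, myb-1 RNAi over control RNAi, against the mean level in control RNAi, both on log axes, for the 1610 abundant transcripts; each point is 1 transcript, and 17 with a ratio under 0.5 lie outside the axis. The 107 members (red) lie above the dashed line at 1.2, at control means of 100 to 4795 CPM. Under the line lie 285 transcripts whose libraries are also separated (orange).

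Members were found in each of 4 classes of abundance, up to a control mean of 4795 CPM. Of 901 transcripts with control means between 100 and 200 CPM, 49 (5.44%) were members, of 484 between 200 and 500 CPM 33 (6.82%), of 138 between 500 and 1000 CPM 15 (10.9%), and of 87 from 1000 CPM 10 (11.5%). The median ratio of the members in these 4 classes was 1.260, 1.302, 1.284 and 1.330, so the size of the difference had no steady order with abundance. The largest ratio, 1.82, was in the lowest class, and the largest from 1000 CPM was 1.49. The counterparts with lower levels in myb-1 RNAi numbered 28, 23, 4 and 1 in the 4 classes.

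The member with the most reads was SmedASXL_018633. Its level in libraries 1, 2 and 3 of each group was 6961, 6600.3 and 6919 CPM in myb-1 RNAi, against 4539.9, 5169 and 4676 CPM in control RNAi. The lowest myb-1 RNAi library was 1.28 times the highest control library, and the means were 6827 ± 197 and 4795 ± 331 CPM (SD, n = 3 each), a ratio of 1.42. It ranked 6 among all transcripts by mean CPM in both groups and was the only member whose rank did not improve in myb-1 RNAi; the other 106 moved up, by a median of 183 places over all 107 and by 581 at most.

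SmedASXL_006564 was next in control abundance, at 4923, 4446 and 4734 CPM in myb-1 RNAi and 3860.4, 3658 and 3734 CPM in control RNAi. All 3 myb-1 RNAi values lay above the highest control value by at least 1.152 times, and the ratio of means was 1.253. SmedASXL_008144 stood at 3696, 3563 and 3672 CPM in myb-1 RNAi and 2326, 2685 and 2325 CPM in control RNAi. Control library 2 was the highest of its group for this transcript and for SmedASXL_018633, and the ratio for SmedASXL_008144 was 1.49, the largest of the 10 members from 1000 CPM upward. SmedASXL_006358 had 2779, 2606 and 2749 CPM in myb-1 RNAi and 1825, 1837 and 1884 CPM in control RNAi. Its 3 control libraries were close together, at a mean of 1848 ± 31 CPM, and its ratio was 1.47.

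The remaining members among the 6 highest by control mean had ratios between those of SmedASXL_006564 and SmedASXL_018633. SmedASXL_014095 was at 2379.9, 2612 and 2482 CPM in myb-1 RNAi and at 1999.8, 1952 and 1883 CPM in control RNAi, a ratio of 1.28. SmedASXL_012836 was at 1752, 2118 and 1810.3 CPM in myb-1 RNAi and at 1659, 1338 and 1387 CPM in control RNAi, a ratio of 1.296. Its groups were separated by a narrow margin, since myb-1 RNAi library 1 was only 1.06 times control library 1.

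The largest ratio belonged to SmedASXL_004037, a transcript of lower abundance. It was at 248, 259 and 243 CPM in myb-1 RNAi and at 149, 126 and 137 CPM in control RNAi. The lowest myb-1 RNAi library was 1.63 times the highest control library, the widest margin of the 107, and the ratio of means was 1.82, or 0.86 (SE 0.06) on the log2(CPM + 0.5) scale. SmedASXL_004511 was close to it, with 276, 278 and 286 CPM in myb-1 RNAi and 157, 151 and 170.5 CPM in control RNAi. Its 3 myb-1 RNAi libraries differed little, at 280.2 ± 5.4 CPM (SD, n = 3), and its ratio was 1.76 with a margin of 1.62. The authors' deposited table gives log2 changes of 0.90 (SE 0.08) for SmedASXL_004037 and 0.85 (SE 0.08) for SmedASXL_004511.

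A step separated these 2 from the rest. The next ratio was 1.61, for SmedASXL_075291, with 422, 507 and 467 CPM in myb-1 RNAi and 269, 306 and 294 CPM in control RNAi. SmedASXL_006548 had 535, 609 and 482 CPM in myb-1 RNAi and 386, 319 and 337 CPM in control RNAi, a ratio of 1.56. The spread within its groups was among the wider ones, so that the margin between the groups was 1.248. SmedASXL_016571 had 837, 937 and 883 CPM in myb-1 RNAi and 544, 595 and 573 CPM in control RNAi, a ratio of 1.55, and SmedASXL_010820 had 466, 465 and 428 CPM in myb-1 RNAi and 269, 316 and 295 CPM in control RNAi, a ratio of 1.54. SmedASXL_018700, with a ratio of 1.53, had the third widest margin after SmedASXL_004037 and SmedASXL_004511, at 241, 251 and 223 CPM in myb-1 RNAi against 155, 159 and 153 CPM in control RNAi. Only 2 of the 10 members with the largest ratios were also among the 10 with the highest control means.

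**Figure D2:**
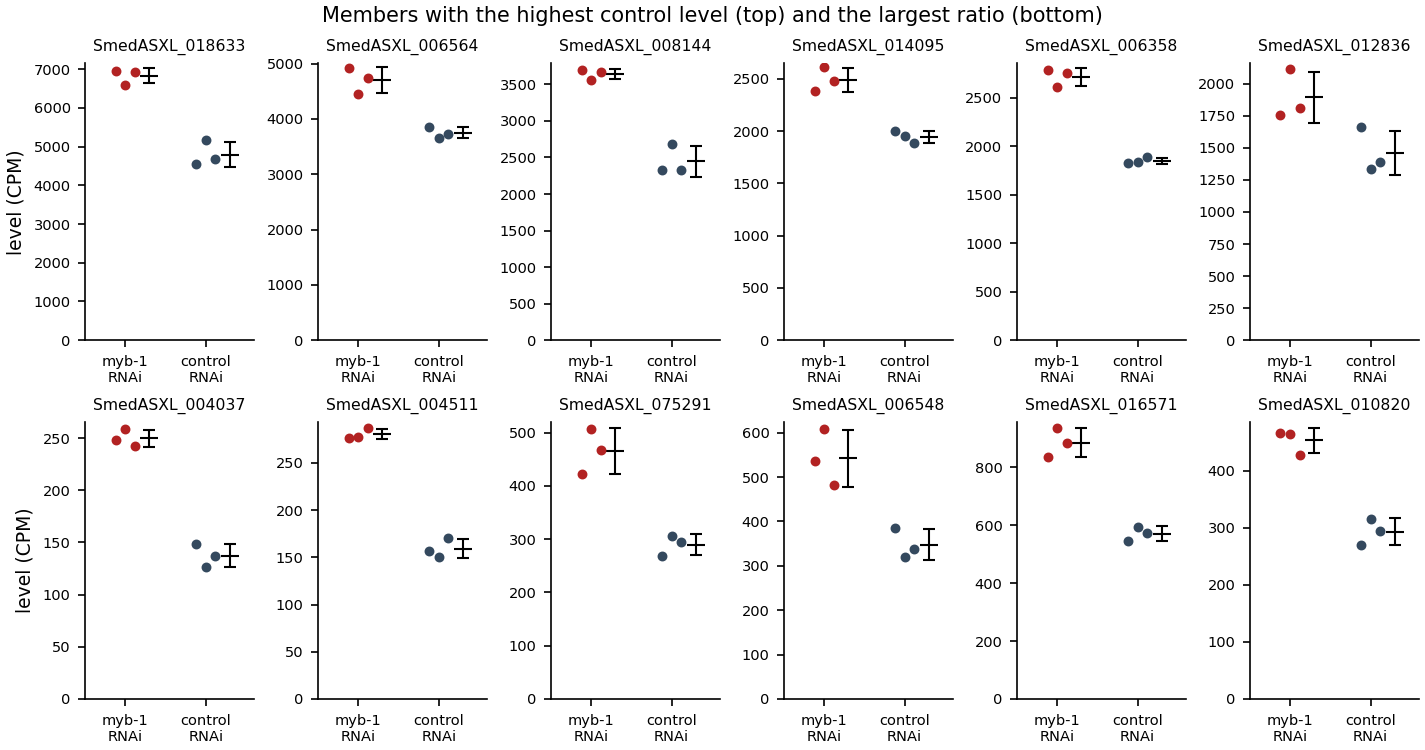
Level in CPM in the 3 myb-1 RNAi libraries (red, left) and the 3 control libraries (dark, right) of 12 members, each panel with its own axis from 0; the bars beside the points are the mean and SD. In the upper row are the 6 members with the highest control mean, led by SmedASXL_018633 at a ratio of 1.42, and in the lower row the 6 with the largest ratio, led by SmedASXL_004037 at 1.82; no panel has overlapping groups, as the rule requires.

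The margin, the lowest myb-1 RNAi library over the highest control library, was 1.01 to 1.63, with a median of 1.18. In 95 of the 107 the margin was at least 1.1, in 46 at least 1.2, in 15 at least 1.3 and in 5 at least 1.4. The 5 narrowest margins were 1.01 to 1.03, so that the place of these members in the set rests on small differences between single libraries. SmedASXL_012438 is one of these, at 106, 140.2 and 146 CPM in myb-1 RNAi and 101, 104 and 100.1 CPM in control RNAi. Its myb-1 RNAi library 1 lay just above the controls and its other myb-1 RNAi libraries well above.

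**Figure D3:**
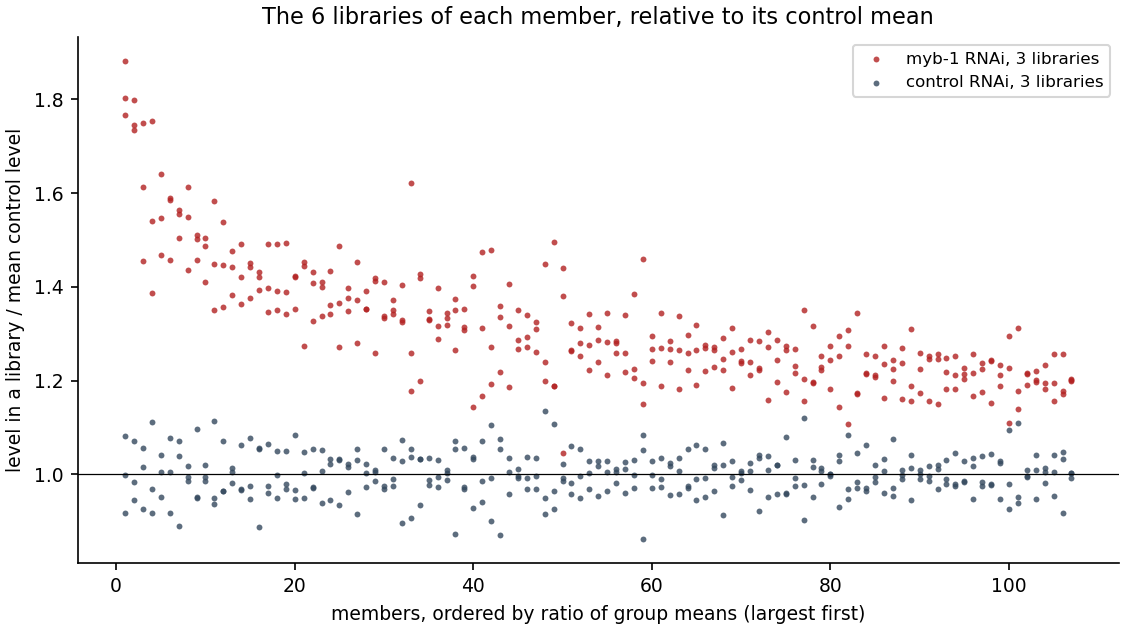
Level of each of the 107 members in every library, divided by that member's mean control level, with members ordered along the x axis from the largest ratio of group means to the smallest; red points are the 3 myb-1 RNAi libraries and dark points the 3 control libraries. Every red point of a member lies above its dark points, with a median margin of 1.18, and the red points draw closer to the dark ones towards the right.

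The higher reads were spread unevenly over the members. The summed difference was 16087 CPM, myb-1 RNAi minus control RNAi, and SmedASXL_018633 alone held 12.6% of it, with a difference of 2032 CPM. With SmedASXL_008144 at 1198 CPM, SmedASXL_006564 at 950.4 CPM and SmedASXL_006358 at 863 CPM, the 4 largest held 31.4%. It took 12 members to reach 50% of the summed difference and 39 to reach 80%. The 10 members with the highest control means held 43.8% of the control level of the set and 46.9% of the summed difference. The other 97 took 3.54% ± 0.05 of the reads in myb-1 RNAi and 2.68% ± 0.03 in control RNAi (SD, n = 3 each), a ratio of 1.32, where the rule admits none under 1.2.

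**Figure D4:**
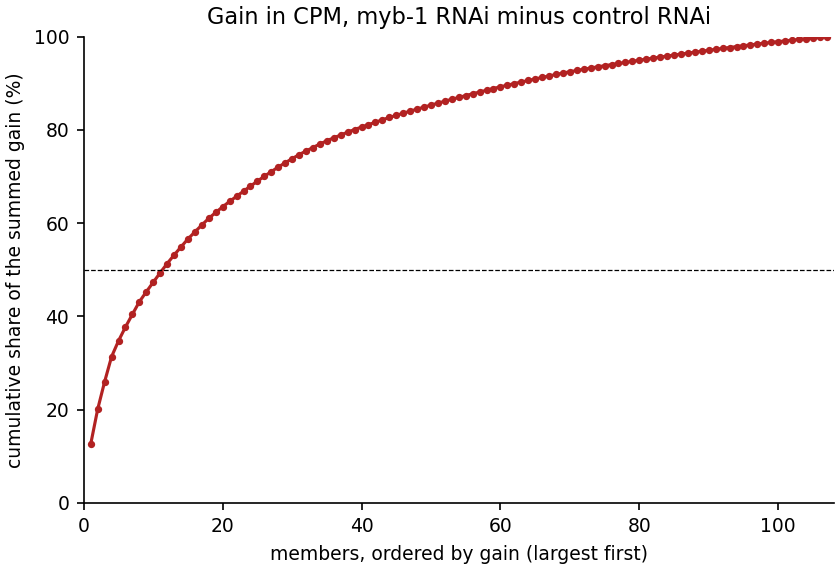
Cumulative share of the summed difference in CPM (myb-1 RNAi minus control RNAi, 16087 CPM in all) over the 107 members, ordered along the x axis from the largest difference to the smallest. The curve passes the dashed line at 50% with member 12 and 80% with member 39.

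Since the CPM of a library add up to a fixed total, a higher summed share of these transcripts is matched by lower shares elsewhere. The 1503 other abundant transcripts took 61.0% ± 0.7 of the reads in myb-1 RNAi and 62.6% ± 1.2 in control RNAi (SD, n = 3 each), a difference of -15975 CPM, myb-1 RNAi minus control RNAi. Of that, -12774 CPM came from SmedASXL_012104 alone, whose level was 48052 CPM in control library 3 and between 5236 and 18322 CPM elsewhere. Transcripts under 100 CPM in the controls took 32.6% of the reads in both groups. These values turn on control library 3. Without it, SmedASXL_012104 averaged 10054 CPM in myb-1 RNAi and 10217 CPM in control RNAi, a difference of -163 CPM, and the difference of the other abundant transcripts was -9395 CPM. Transcripts under 100 CPM then took 32.6% in myb-1 RNAi and 33.3% in control RNAi, a difference of -6677 CPM, while the summed difference of the members was 16072 CPM. With totals that leave SmedASXL_012104 out, 93 of the 107 still met the rule and the ratio of the sums was 1.32.

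Values close to the limits of the rule show how the set was bounded. The members with the lowest ratio, SmedASXL_006455, SmedASXL_018714 and SmedASXL_018733, had ratios of 1.201 to 1.203. SmedASXL_006455 was among the most even of all, at 303, 304 and 304 CPM in myb-1 RNAi and 254, 251 and 254 CPM in control RNAi, so that a small ratio went with a clear margin of 1.19. The transcripts that met the other conditions and came closest under the ratio limit reached 1.199, the value of SmedASXL_018682, which had 503, 518 and 483 CPM in myb-1 RNAi and 398, 428 and 428 CPM in control RNAi. At the abundance limit, SmedASXL_069912 was just inside, at 115, 143 and 141 CPM in myb-1 RNAi and 93.1, 103 and 104 CPM in control RNAi, and SmedASXL_012090 just outside, at 122, 122 and 123 CPM in myb-1 RNAi and 93.1, 104 and 98.7 CPM in control RNAi. Between 50 and 100 CPM, 74 further transcripts met the other 2 conditions.

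Only 7 of the 114 abundant transcripts with a ratio of at least 1.2 failed because their libraries overlapped. A ratio this high was met by 7.08% of the abundant transcripts, and separated libraries with the higher values in myb-1 RNAi by 24.3%. SmedASXL_018001 had the highest ratio of the 7, 1.42, at 3314, 4776 and 4671 CPM in myb-1 RNAi and 3032, 2652 and 3319 CPM in control RNAi. SmedASXL_017818 was similar, at 1008, 1533 and 1432 CPM in myb-1 RNAi and 1010.2, 831 and 999 CPM in control RNAi. In both, myb-1 RNAi library 1 stood at the level of the controls and the other myb-1 RNAi libraries far above. In 3 others control library 1 stood far below all other libraries: SmedASXL_004206 had 1009.5, 912 and 862 CPM in myb-1 RNAi and 212, 926 and 887 CPM in control RNAi, and SmedASXL_052632 had 337, 278 and 288 CPM in myb-1 RNAi and 61.3, 306 and 286 CPM in control RNAi. SmedASXL_060800 showed the same, at 155, 138 and 132 CPM in myb-1 RNAi and 34.5, 141 and 138 CPM in control RNAi.

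Within groups, the median spread of the members was close to that of all 1610 abundant transcripts and slightly higher. The rule asks for separated libraries, which limits the spread a member can have, so this comparison is a description. The median coefficient of variation was 3.96% in myb-1 RNAi and 4.57% in control RNAi for the members, and 3.69% and 4.04% for all 1610. The 4 most variable members in myb-1 RNAi reached 13.2% to 17.4%, led by SmedASXL_014844 at 304.4, 392.0 and 284.8 CPM in myb-1 RNAi and 255, 219.5 and 251 CPM in control RNAi. The order of the libraries within the control group differed from that of abundant transcripts at large. Control library 3 was the lowest of its group for 30 of the 107 members (28.0%) and for 53.8% of all 1610, and control library 2 was the highest for 34.6% and 51.8%. In the myb-1 RNAi group, library 1 was the lowest for 41.1% of the members and 42.0% of all 1610. These orders are descriptions of a set chosen in part by its highest control value and were not tested.

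Some members followed each other across the libraries. Among 10 pairs of members whose identifiers lie within 3 numbers of each other, the ratio of the 2 levels varied across the 6 libraries by 1.02 to 1.196 times, highest over lowest, with a median of 1.12, where the median over all 5671 pairs of members was 1.24. The tables do not say whether neighbouring numbers mark related sequences, and reads shared between copies or isoforms may have been split between them. SmedASXL_018080 had 186, 179 and 198 CPM in myb-1 RNAi and 129.5, 127 and 141 CPM in control RNAi. SmedASXL_018082 had 249.9, 241 and 269 CPM in myb-1 RNAi and 176, 175 and 189 CPM in control RNAi, and SmedASXL_018083 had 202, 189 and 215 CPM in myb-1 RNAi and 135, 135 and 149.6 CPM in control RNAi. In all 3, library 3 was the highest of either group, and the ratios were 1.41, 1.41 and 1.45. SmedASXL_018081, between them in number but under the abundance limit, had a ratio of 1.395, at 108, 101 and 109 CPM in myb-1 RNAi and 73.1, 73.4 and 81.2 CPM in control RNAi. The next numbers on either side, SmedASXL_018079 and SmedASXL_018084, had ratios of 0.963 and 0.913.

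SmedASXL_077712 and SmedASXL_077713, far from these in number, had the same pattern. SmedASXL_077712 was at 576, 559.8 and 618 CPM in myb-1 RNAi and 414, 394 and 435 CPM in control RNAi, and SmedASXL_077713 at 324, 312 and 341 CPM in myb-1 RNAi and 221, 221 and 243 CPM in control RNAi. Their ratios were 1.41 and 1.43. Over the 10 pairs among these 5 members the ratio of levels varied by 1.02 to 1.08 times, a range that 2.79% of all member pairs fell within or under. Those of them with neighbouring numbers were also counted among the neighbouring pairs above. The remaining neighbouring pairs varied more, by 1.11 to 1.196 times. These transcripts were singled out after their values were seen, and whether they share sequence was not tested.

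**Figure D5:**
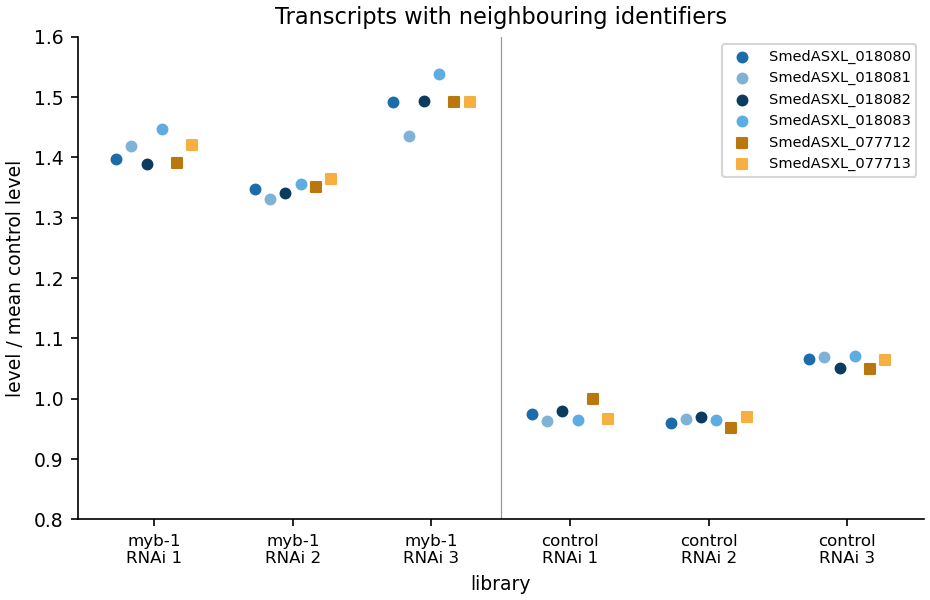
Level in each library divided by the transcript's mean control level for 6 transcripts with neighbouring identifiers; myb-1 RNAi libraries are on the left and control libraries on the right, and the y axis starts at 0.8. Circles are SmedASXL_018080 to SmedASXL_018083 and squares SmedASXL_077712 and SmedASXL_077713; in each library the 6 lie close together, with ratios of group means of 1.395 to 1.45.

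Calls of the test over all transcripts are given as a description, because the rule used the same contrast. With limma on log2(CPM + 0.5), 717 of 25832 tested transcripts were higher in myb-1 RNAi at a Benjamini-Hochberg adjusted p below 0.05, or 2.78%, and 11.3% of the 1610 abundant ones. All 107 members passed the filter for testing, and 102 of them were among the calls. In edgeR's quasi-likelihood test, where 2.86% of all tested transcripts were called higher, and in DESeq2 on the same reads, where 5.72% of those with an adjusted p were, 105 members were called higher each time. The 5 that missed the limma threshold were SmedASXL_014844, SmedASXL_012836, SmedASXL_006880, SmedASXL_012438 and SmedASXL_017331, with limma adjusted p of 0.205, 0.117, 0.108, 0.170 and 0.232. The 4 of them other than SmedASXL_012836 were the 4 most variable members in myb-1 RNAi. In the authors' deposited table, where 3.88% of transcripts with an adjusted p were called higher, 104 members were called higher. The exceptions there were SmedASXL_009719, SmedASXL_004179 and SmedASXL_017331, with adjusted p of 0.079, 0.11 and 0.19 in the authors' deposited table. SmedASXL_017331 was at 168, 174 and 213 CPM in myb-1 RNAi and 126, 153 and 158 CPM in control RNAi. It missed the threshold in limma and in the authors' deposited table. The threshold was also missed for it in edgeR's quasi-likelihood test (adjusted p of 0.066) and in DESeq2 on the same reads (adjusted p of 0.165).

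The rule was also applied with single libraries left out. Since the members were chosen from the same libraries, and leaving one out cannot make separated groups overlap, a member can drop out only through its ratio or its control mean. Leaving out each library in turn and applying the rule to the other 5 gave 101 to 120 members; 80 of the 107 were members each time and 27 dropped out at least once. The 27 had a median ratio of 1.22 and ratios of 1.32 at most. The highest was that of SmedASXL_069912, which dropped out through its control mean of 100.2 CPM, since its ratio stayed at 1.27 or more. Of 46 members with a ratio of at least 1.3, 45 stayed members each time and under the 3 other scalings tried. Transcripts from outside the 107 can also enter, since 5 libraries are easier to separate than 6. The counts are therefore not those of an equally strict rule. Without myb-1 RNAi library 1 the count was highest, at 120, of which 105 were among the 107.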

How the data were processed

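Poly(A)-selected RNA of whole planarians was made into TruSeq libraries, per the labels' protocols. Among the tools, bcl2fastq 1.8.3, Bowtie2 2.2.4 and DESeq2 are listed with no roles, per the submitters' processing notes; how reads were counted, and on which build, is not given in the sources used here. From the values, the authors' deposited normalised counts (signal columns matched to samples by name) are reads scaled by a size factor for each library: 100% of values were whole multiples of 1 step within 0.001. Which lanes they hold was not checked. A row that names no transcript, with 5.42% to 6.24% of the reads, was left out, and CPM were computed here from the rest. The authors' deposited CPM per lane, per the file headers, were used by group only for lane 2 (100% whole within 0.05), since their letters are not in the labels, and 6 columns were not used. The authors' deposited table also gives log2 fold changes, their standard errors and adjusted p-values from DESeq2.

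Transcripts that reached 0.5 CPM in 3 or more of the 6 libraries entered a test with limma 3.58.1 in R 4.3.3 (trend and robust moderation) on log2(CPM + 0.5), a scale that understates changes of low transcripts, with group as the only term, both tails and Benjamini-Hochberg adjustment over all tested; the plan named this test. Its scripts were tested on simulated data, where recovery was required only for changes larger than those of most members. edgeR 4.0.16 (quasi-likelihood) and DESeq2 1.42.0 were run on the recovered reads. The members, their rule and the alternatives were chosen with earlier results of these data known. The rule for named members took the 6 highest by control mean, 6 by ratio, 4 by difference, 3 by margin, the 3 lowest by ratio and by control mean, and 3 outside each limit; transcripts with neighbouring identifiers, those with wide spread or a missed threshold, and others outside it were named after their values were seen. The marker and process lists of the plan matched no transcript, since no names are given, and were not used. No reference sequence was used here. Whether the replicates came from separate cultures is not stated beyond the word biological, so p-values measure the spread between these samples.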

Additional observations from a re-analysis of the deposited data

How the results depend on the processing

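The count of 107 members depends on the limits of the rule: a control mean of at least 50 CPM gave 181 and of at least 200 CPM 58, and a ratio limit lower by 0.05 gave 163 and one of 1.3 gave 46. The deposited size factors gave 138 members, of which 106 are shared with the 107, TMM scaling 112, sharing all 107, and totals without SmedASXL_012104 gave 94, sharing 93. Lane 2 alone, added after seeing the data, gave 108, sharing 103. A lane is a technical repeat of the same libraries and no independent measure. The ratio of the summed shares was 1.37 with the deposited size factors, a move larger than the spread of 0.0207 between replicates. Relative to the full totals, that scaling gives myb-1 RNAi libraries higher values. With the full totals the median log2 ratio of tested transcripts was -0.028, and the 3 other scalings shifted it by -0.02 to 0.04.

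Over 18 alternatives of the test, 94 to 107 members were called higher, in a direction that their choice fixed, with 105 in edgeR, 105 in DESeq2 and 94 at an adjusted p below 0.01, where 1.49% of all tested transcripts were called higher. Over the 18, the share of all transcripts called higher was 0.779% with no filter to 5.72% in DESeq2. The summed levels without control library 3 were added after seeing the data. Over all tested transcripts limma called 1244, 57.6% of them higher. The share called higher moved both ways with the scaling. It was 47.2% of 1479 calls with totals without SmedASXL_012104, 59.6% of 1313 with TMM scaling and 65.4% of 1120 with median-of-ratios scaling. Leaving out 1 library gave 711 to 1454 calls, with 711 without control RNAi replicate 2, 734 without myb-1 RNAi replicate 2 and 810 without myb-1 RNAi replicate 3, each with 1 sample fewer. Samples with the same number were not treated as pairs, because their deviations from the group means correlated by only 0.08, 0.03 and 0.04; with the replicate block limma called 1249 transcripts and 105 members. Of 171 recomputed ratios of the 19 named members, 169 moved by less than the spread between replicates. Leaving out 1 library of a group of 3 cannot move a ratio beyond that spread, so only the scalings could give exceptions. Both exceptions were SmedASXL_006455, at 1.23 with the deposited size factors and 1.19 with totals without SmedASXL_012104.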
